A study of Homo sapiens with 6 samples.

Results

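The genes described here make, sense, move and export cholesterol. They are 28 genes chosen by name from the 58735 in the deposited table: 19 enzymes of synthesis (8 of the mevalonate pathway and 11 of the sterol pathway), 4 genes that control SREBP2, 3 genes of uptake and intracellular transport, and 2 efflux transporters. All 28 were in the table, and 27 had a mean of at least 1 FPKM (a read count divided by gene length and library depth), the minimum set for testing; the efflux gene ABCA1 lay under it. The cells were SZ95, an immortalised line of human sebaceous gland cells, labelled wild type and transfected with a mock plasmid (3 libraries, called mock) or labelled TRPV3 overexpression and transfected with a TRPV3-overexpression plasmid (3 libraries, called TRPV3), at 24 h in both groups. TRPV3 is a cation channel of skin cells that opens on warming and lets calcium in, and the design text gives its part in the inflammation of sebocytes as the question and calls the replicates biological. No label names the promoter of the plasmid, and the cells are 1 line. Total RNA of a whole culture was read, so a change in every cell and a larger change in a share of the cells cannot be told apart.

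Cholesterol is built from acetyl-CoA. The mevalonate pathway yields isoprenoid units, which are joined into squalene, and squalene is cyclised and trimmed to cholesterol by the enzymes of the endoplasmic reticulum. The transcription factor SREBP2 drives most of these enzymes: when sterols are low, SCAP escorts it to the Golgi for cleavage, and when sterols are high, INSIG proteins hold the pair back. Excess cholesterol leaves through ABC transporters that LXR receptors induce. Sebaceous cells fill with lipid, and squalene is a characteristic component of human sebum.

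Promoter sequences are shown for 4 members on which the results turn: HMGCS1, MSMO1 and INSIG1, and SREBF2, the gene of the transcription factor itself. The first 3 were called by voom on reads without TRPV3 replicate 1, which called 0.591% of all genes. They were called again by the same fit with another gene filter, added after seeing the data, which called 0.535%. Each sequence is the 250 bases before the RefSeq start site (GRCh38.p14), read 5′ to 3′ on the gene's strand, with matches to either of 2 motifs in capitals: CACNCCAC, a core of the sterol regulatory element, and CCAAT, the NF-Y box, each searched on both strands. The regions are chr5:43313413-43313662 (minus strand), chr4:165327419-165327668 (plus), chr7:155297628-155297877 (plus) and chr22:41832855-41833104 (plus).
HMGCS1: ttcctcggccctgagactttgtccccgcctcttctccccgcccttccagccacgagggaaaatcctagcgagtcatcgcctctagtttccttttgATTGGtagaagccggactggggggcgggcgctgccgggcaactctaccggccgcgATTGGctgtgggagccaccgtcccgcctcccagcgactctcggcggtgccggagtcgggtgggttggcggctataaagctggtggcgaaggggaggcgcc
MSMO1: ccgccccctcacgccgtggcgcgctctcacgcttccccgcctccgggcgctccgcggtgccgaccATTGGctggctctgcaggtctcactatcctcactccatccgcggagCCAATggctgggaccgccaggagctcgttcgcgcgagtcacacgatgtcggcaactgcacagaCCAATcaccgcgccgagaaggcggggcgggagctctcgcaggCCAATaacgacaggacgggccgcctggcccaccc
INSIG1: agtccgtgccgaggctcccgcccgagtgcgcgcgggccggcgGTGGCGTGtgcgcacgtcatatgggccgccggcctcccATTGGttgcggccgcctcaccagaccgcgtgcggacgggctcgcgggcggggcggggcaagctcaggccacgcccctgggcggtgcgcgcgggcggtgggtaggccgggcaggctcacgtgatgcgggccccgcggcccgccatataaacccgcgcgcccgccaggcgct
SREBF2: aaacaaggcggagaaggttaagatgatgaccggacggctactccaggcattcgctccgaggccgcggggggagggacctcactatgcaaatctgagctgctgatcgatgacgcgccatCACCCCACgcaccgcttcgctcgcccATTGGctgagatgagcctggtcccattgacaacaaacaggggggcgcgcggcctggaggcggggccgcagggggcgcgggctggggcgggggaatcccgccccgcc

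HMGCS1 held 2 CCAAT matches and MSMO1 held 4, and neither held the sterol element core in this stretch. INSIG1 held the core on the minus strand at position -208, counted from the start site, and a CCAAT match at -170. In SREBF2 the core, read as CACCCCAC, began at -132 and the CCAAT match at -106. In windows of 300 bases (250 before and 50 after the start), 24 of the 28 members had an entry in the RefSeq table; ACAT2, FDFT1, SQLE and ABCG1 were not matched. CCAAT stood in 12 of the 16 synthesis promoters matched, against 36.8% of the 8713 promoters of tested genes and 35.7% of all 27305. The core stood in 1 of these 16, that of SC5D, against 5.76% of the promoters of tested genes. The 2 motifs share no overlapping match in the sequences printed, and a match describes letters only. The gene models of the deposited table, which follow GENCODE 29, begin inside the stretches printed, ahead of the RefSeq starts.

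The 6 libraries held between 16.0 and 18.4 M reads, recovered as whole numbers from the FPKM values. TRPV3 itself was at 0.404 ± 0.0400 FPKM in mock and 648 ± 103 FPKM in TRPV3 libraries (SD, n = 3 each), a ratio of means of 1606. The fitted difference in log2(FPKM + 1) was 8.84 ± 0.12 (SE), with a limma adjusted p of 2.7e-07. The added 1 makes this smaller than the ratio, since the mock level is under 1 FPKM. Voom on the recovered reads gave 10.6 (SE 0.20) on the log2 scale. By exact permutation of the libraries, two-sided, p was 0.1, the lowest value that 3 against 3 allows. Of 12 sebocyte markers 8 were at 1 FPKM or more, led by KRT7, and AWAT1, AWAT2 and MC5R were among those under it. The 6 genes listed as basal epithelial summed to 924 to 970 FPKM in mock and to 972 to 1373 FPKM in TRPV3 libraries. KRT18 and KRT8 were the most abundant of them, with means of 336 and 325 FPKM in mock. These 2 are keratins of simple epithelia, so the sum does not measure a basal signature. The mean was higher with TRPV3 in KRT18, KRT8, KRT17 and KRT14, the last near 1 FPKM. It was lower in KRT5 (160 FPKM in mock, 149 FPKM in TRPV3) and in TP63, which was under 1 FPKM. Suprabasal markers summed to 15.7 to 21.9 FPKM in mock and to 21.7 to 24.4 FPKM in TRPV3 libraries. Fibroblast markers summed to 2.36 to 2.89 FPKM in mock and 2.05 to 2.19 FPKM in TRPV3 libraries, and leukocyte markers to at most 1.80 FPKM. The part of these differences in the results was not tested. TRPV3 replicate 1 stood apart: it lay alone at one end of the first principal component, which held 57.9% of the variance, and its deviation from the mean of all 6 libraries decreased with gene length (Spearman's rho -0.53 across 12177 genes, which are not independent replicates). Mock replicate 3 had reads in 34467 genes, where the others had between 22311 and 23072. Results are therefore given with all libraries and without TRPV3 replicate 1.

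No member passed the test over all genes with all 6 libraries, yet most enzymes of synthesis lay higher in TRPV3 cells. Of the 27 members tested 0 were called (limma on log2(FPKM + 1), adjusted p under 0.05), as against 5 of all 12177 genes, or 0.0411%. At an unadjusted limma p under 0.05 stood 10 members, all higher with TRPV3, where 4.48% of all genes did so in either direction and 3.28% were higher. That count was 3 without mock replicate 3 (2.47% of all genes in either direction) and 6 without mock replicate 2 (2.79%). It was 7 after rescaling to TPM (3.79%) or by quantiles (4.79%). Voom on the recovered reads called 0 members too (0.0328% of all genes), with 9 members higher and ABCG1 lower at an unadjusted p under 0.05, against 4.2% of all genes in either direction and 2.49% higher. The synthesis enzymes had a log2 fold change above 0 in 17 of 19 cases, against 53% of all genes, and a median of 0.29, against 0.01. In 11 of the 19 the 3 TRPV3 libraries all exceeded the 3 mock libraries, against 9.49% of all genes, and in none of the 19 was the order the reverse, against 5.39%. Members are not replicates of each other, so the counts describe the list and carry no test.

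**Figure D1:**
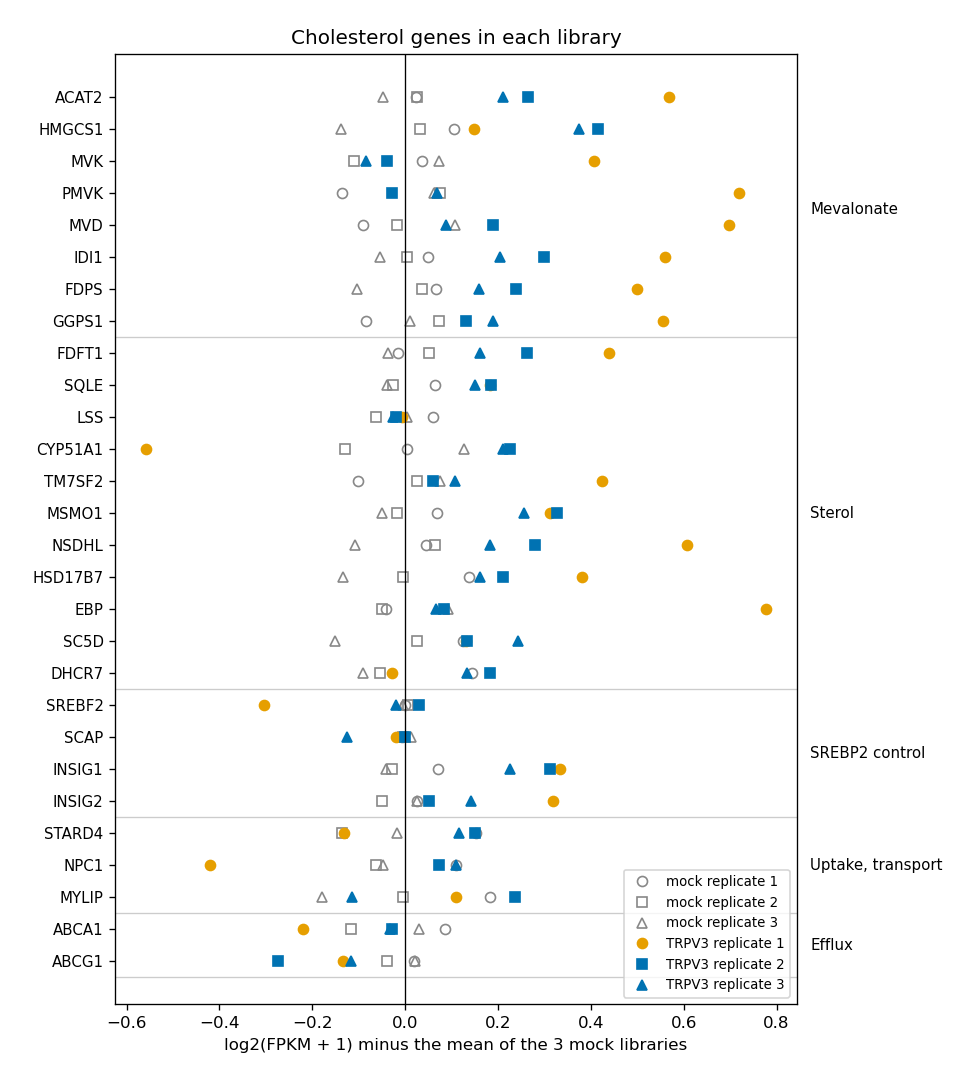
Each row is 1 of the 28 genes, and each mark gives 1 library as log2(FPKM + 1) minus the mean of the 3 mock libraries; open grey marks are mock, filled marks TRPV3. TRPV3 replicates 2 and 3 lie apart in MYLIP and ABCG1 and nearer each other in most synthesis genes, where replicate 1 (orange) is the highest of the 6 libraries in 12 of 19 and the lowest in 1.

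Without TRPV3 replicate 1 the synthesis genes lay less far above mock in the median, and their limma standard errors were smaller. Their fold changes then ran from -0.06 to 0.40, against -0.04 to 0.36 with all libraries. Without that library the median log2 fold change of the 19 was 0.19, against 0.01 for all genes, with 17 above 0, against 53.7%. Leaving out mock replicate 3 as well gave a median of 0.15, again with 17 above 0. TRPV3 replicates 2 and 3 both exceeded every mock library in 12 of the 19, against 14.1% of all genes, and in ABCG1 both lay below every mock library, against 10.1%. Limma called 0 members, against 0.0657% of all genes, with 10 members at an unadjusted p under 0.05, all higher, against 7.06% of all genes in either direction and 4.51% higher. Voom on the recovered reads called 3 members in that case, HMGCS1, MSMO1 and INSIG1, all higher with TRPV3, against 0.591% of all genes (72 of 12177) in either direction and 0.567% higher. At an unadjusted p this voom fit had 14 members under 0.05, 13 of them higher, against 7.7% and 4.65% of all genes. With a minimum mean of 10 reads in place of the FPKM filter (14967 genes) it called the same 3 members, against 0.535% of all genes. By library, the median of the synthesis genes relative to mock was 0.42, 0.19 and 0.16 in TRPV3 replicates 1 to 3, and between -0.04 and 0.04 in the mock libraries.

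The 8 enzymes of the mevalonate pathway all had a positive fold change with all libraries, with a median of 0.31, and 7 did without TRPV3 replicate 1, with a median of 0.18. HMGCS1 (ENSG00000112972, hg38 chromosome 5, 43289395 to 43313512, minus strand) condenses acetyl-CoA with acetoacetyl-CoA and was the most abundant of the 8. Its FPKM was 91.7, 87.2 and 77.4 in mock replicates 1 to 3 and 94.5, 114 and 111 in TRPV3 replicates 1 to 3. The groups did not overlap, but TRPV3 replicate 1 lay close to the highest mock library. On the log2 scale it differed by 0.31 (SE 0.11; limma adjusted p = 0.755), and over the alternatives the adjusted p ran from 0.0016 to 0.966. Without TRPV3 replicate 1 the fold change was 0.40 (SE 0.07, limma adjusted p = 0.195), and voom on the reads gave 0.39 (SE 0.06, voom adjusted p = 0.0029).

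IDI1, which interconverts the 2 isoprenoid building blocks, was at 27.2, 26.3 and 25.3 FPKM in mock and at 39.2, 32.6 and 30.4 FPKM in TRPV3 libraries. The 3 mock values were close together, all TRPV3 values lay above them, and replicate 1 was the highest. Its log2 fold change was 0.35 (SE 0.11) with all libraries and 0.25 (SE 0.05) without TRPV3 replicate 1. ACAT2, the cytosolic thiolase that makes acetoacetyl-CoA, was at 29.7, 29.8 and 28.2 FPKM in mock and at 43.8, 35.3 and 34.0 FPKM in TRPV3 libraries, again without overlap. For ACAT2 the fold change was 0.35 (SE 0.11), or 0.24 (SE 0.05) without TRPV3 replicate 1. The exons of ACAT2 share 397 bases with TCP1 on the opposite strand, which had up to 9138 reads, and no source used here states whether the counting used strand.

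FDPS, which joins isoprenoid units to farnesyl diphosphate, was at 40.4, 39.5 and 35.8 FPKM in mock and at 54.9, 45.6 and 43.2 FPKM in TRPV3 libraries. GGPS1, which extends farnesyl to geranylgeranyl diphosphate for protein prenylation, was low, at 2.94, 3.40 and 3.21 FPKM against 5.15, 3.58 and 3.77 FPKM. Both were free of overlap between groups, with log2 fold changes of 0.30 and 0.29 (limma), or 0.20 and 0.16 without TRPV3 replicate 1. GGPS1 shares 1422 exonic bases with TBCE on the same strand, so its reads are uncertain, and the 8 pseudogenes named after FDPS had at most 6 reads in a library.

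In the remaining 3 mevalonate enzymes TRPV3 replicate 1 stood well above every other library. PMVK, the phosphomevalonate kinase, was at 28.3 FPKM there, and between 15.2 and 17.7 FPKM in the other 5 libraries. MVD, which decarboxylates mevalonate diphosphate, was at 54.2 FPKM there and between 30.9 and 37.8 FPKM in the other 5. MVK, the mevalonate kinase, was at 18.8 FPKM there and between 12.9 and 14.7 FPKM elsewhere. Without that library the log2 fold changes of 0.25, 0.32 and 0.09 were 0.02, 0.14 and -0.06 for PMVK, MVD and MVK, so that the direction of MVK turned.

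In the sterol pathway 9 of 11 enzymes had a positive fold change with all libraries, with a median of 0.20, and 8 did after rescaling to TPM or by quantiles, where DHCR7 lay below 0. Of all genes 53% were above 0 before rescaling, 32.9% with TPM and 49.2% with quantiles. MSMO1 (ENSG00000052802, chromosome 4, 165327623 to 165343160, plus strand), the oxidase that starts removal of a pair of methyl groups from the sterol ring, was at 80.8, 76.1 and 74.4 FPKM in mock and at 95.8, 96.9 and 92.3 FPKM in TRPV3 libraries. The gap between the groups was wider than the range within either, and TRPV3 replicate 1 lay between its 2 fellows. The difference was 0.30 on the log2 scale (SE 0.08; limma adjusted p = 0.715), with adjusted p from 0.0116 to 0.966 over the alternatives. It was 0.29 without TRPV3 replicate 1, both by limma (SE 0.05, adjusted p = 0.178) and by voom (SE 0.05, adjusted p = 0.0153).

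FDFT1, the squalene synthase that commits farnesyl diphosphate to sterols, was at 63.2, 66.3 and 62.3 FPKM in mock and at 87.0, 76.8 and 71.6 FPKM in TRPV3 libraries. SQLE, the squalene epoxidase, was at 66.6, 62.5 and 61.9 FPKM against 72.4, 72.5 and 70.8 FPKM. Neither gene overlapped between groups, and the SQLE values of the 3 TRPV3 libraries were within 2 FPKM of each other. Fold changes on the log2 scale were 0.29 (SE 0.09) for FDFT1 and 0.17 (SE 0.07) for SQLE, and 0.21 and 0.17 without TRPV3 replicate 1 (limma). LSS, which cyclises squalene epoxide to lanosterol, stood between these higher steps with 19.1, 17.5 and 18.4 FPKM in mock and 18.2, 18.1 and 18.0 FPKM in TRPV3 libraries. Its fold change was -0.02, with a 95% interval from -0.18 to 0.15 (limma).

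NSDHL, the dehydrogenase that takes over from MSMO1, was at 19.6, 19.9 and 17.5 FPKM in mock and at 29.5, 23.3 and 21.7 FPKM in TRPV3 libraries, and its log2 fold change of 0.36 (SE 0.12, limma) was the largest of the 27 members. It was 0.23 (SE 0.07) without TRPV3 replicate 1. HSD17B7, the ketone reductase of the same step, was at 4.81, 4.27 and 3.81 FPKM against 5.88, 5.11 and 4.90 FPKM. SC5D, a desaturase near the end of the pathway, was at 7.02, 6.49 and 5.62 FPKM against 7.06, 7.06 and 7.70 FPKM. The groups did not overlap in these 3 genes, though in HSD17B7 and SC5D the gap to mock replicate 1 was under 0.1 FPKM. Pseudogenes named after HSD17B7 had at most 3 reads in a library.

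EBP, the sterol isomerase, and TM7SF2, a sterol reductase, were high in TRPV3 replicate 1 only. EBP was at 64.7 FPKM there and between 36.0 and 39.8 FPKM in the other 5 libraries, and TM7SF2 was at 9.05 FPKM there and between 5.98 and 7.06 FPKM in the others. CYP51A1, the lanosterol demethylase, went the other way. It was at 7.64, 6.88 and 8.41 FPKM in mock, at 4.86 FPKM in TRPV3 replicate 1, and at 9.07 and 8.98 FPKM in replicates 2 and 3. Its log2 fold change was -0.04 (SE 0.21) with all libraries and 0.22 (SE 0.08) without replicate 1 (limma), a change of direction. Of the exonic bases of CYP51A1, 2844 (79.3%) also belong to a gene model on the same strand with 0 reads in every library. How reads in shared bases were counted is not stated, so the reads and FPKM of CYP51A1 are uncertain. DHCR7, which carries out the last reduction on the way to cholesterol, overlapped between groups, at 97.2, 84.5 and 82.4 FPKM against 86.1, 99.8 and 96.4 FPKM.

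**Figure D2:**
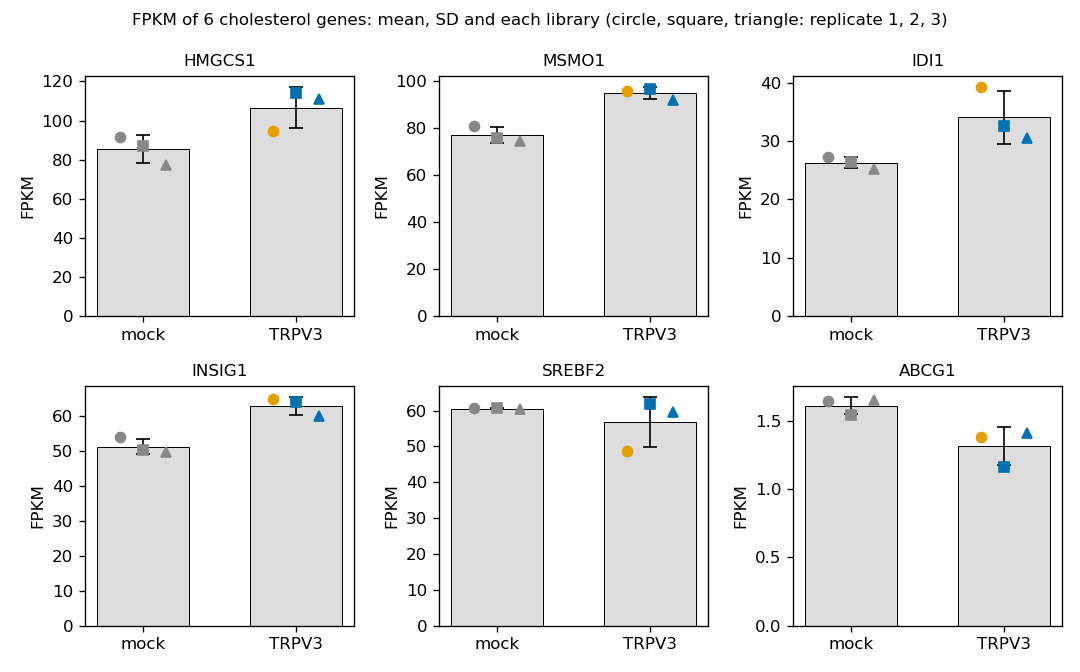
Bars give the mean FPKM of 3 libraries, error bars the SD and marks the single libraries, for HMGCS1, MSMO1, IDI1, INSIG1, SREBF2 and ABCG1 (orange is TRPV3 replicate 1). The groups do not overlap in HMGCS1, MSMO1, IDI1 and INSIG1 (TRPV3 higher) and in ABCG1 (TRPV3 lower), and they overlap in SREBF2. Of all genes, 9.49% had every TRPV3 library above every mock library and 5.39% had every one below. The 6 genes are examples, and 13 of the 27 members tested overlapped between groups.

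Among the 4 genes that control SREBP2, the INSIG pair lay higher with TRPV3 while the factor and its escort did not. INSIG1 (ENSG00000186480, chromosome 7, 155297776 to 155310235, plus strand), the retention protein that SREBP2 itself induces, was at 53.8, 50.1 and 49.6 FPKM in mock and at 64.7, 63.8 and 60.0 FPKM in TRPV3 libraries. All 3 TRPV3 values exceeded all mock values by at least 6 FPKM. The difference was 0.29 on the log2 scale (SE 0.08; limma adjusted p = 0.755, and 0.0289 to 0.966 over the alternatives). It was 0.27 without TRPV3 replicate 1 by limma (SE 0.06, adjusted p = 0.232) and 0.26 by voom (SE 0.05, adjusted p = 0.0356). Its paralog INSIG2 was less abundant per length, at 6.10, 5.74 and 6.10 FPKM in mock and at 7.71, 6.22 and 6.70 FPKM in TRPV3 libraries, with a fold change of 0.17 (SE 0.09), or 0.10 (SE 0.06) without TRPV3 replicate 1.

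SREBF2, which encodes SREBP2, was almost constant in mock at 60.6, 60.8 and 60.3 FPKM, and at 48.8, 61.8 and 59.7 FPKM in TRPV3 libraries. Its log2 fold change was -0.10, with a 95% interval from -0.34 to 0.15, and 0.00 (0.0047; interval -0.10 to 0.11) without TRPV3 replicate 1 (limma). SCAP was at 14.3, 14.3 and 14.5 FPKM in mock and at 14.2, 14.4 and 13.1 FPKM in TRPV3 libraries, a fold change of -0.05 (interval -0.22 to 0.12). The 2 groups overlapped in both genes. At the level of 60.6 ± 0.233 FPKM in mock, SREBF2 was close to its targets SQLE and FDFT1 in FPKM, which is per length.

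None of the 3 genes of uptake and transport separated the groups. Of all genes, 9.49% had every TRPV3 library above every mock library and 5.39% had every one below, so this count is no result about the 3. STARD4, which carries cholesterol between membranes, was at 9.95, 7.96 and 8.73 FPKM in mock and at 7.99, 9.93 and 9.67 FPKM in TRPV3 libraries. NPC1, which exports cholesterol from lysosomes, was at 15.3, 13.4 and 13.6 FPKM against 10.3, 14.9 and 15.3 FPKM. MYLIP, an LXR-induced ubiquitin ligase that marks lipoprotein receptors for breakdown, was at 2.98, 2.50 and 2.10 FPKM against 2.78, 3.13 and 2.24 FPKM. NPC1 was lowest in TRPV3 replicate 1, and its log2 fold change of -0.08 (SE 0.15) was 0.09 (SE 0.07) without that library (limma). For STARD4 and MYLIP the fold changes were 0.05 (SE 0.11) and 0.08 (SE 0.13), within their errors. That of STARD4 was -0.05 after rescaling to TPM, where the median of all genes was -0.08.

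The efflux transporters were low, and of the 2 only ABCG1 separated the groups, with TRPV3 below mock. ABCG1 (ENSG00000160179, chromosome 21, 42199689 to 42297244, plus strand), which passes cholesterol to HDL, was at 1.65, 1.54 and 1.65 FPKM in mock and at 1.38, 1.16 and 1.41 FPKM in TRPV3 libraries. It was the member in which every TRPV3 library lay below every mock library, which 5.39% of all genes also showed. These values rest on 177, 153 and 184 reads in mock and 149, 127 and 151 reads in TRPV3 libraries. The log2 fold change of FPKM + 1 was -0.17 (SE 0.09, limma adjusted p = 0.755), which understates a gene at this level; voom on the reads gave -0.32 with all libraries and -0.35 (SE 0.14, voom adjusted p = 0.562) without TRPV3 replicate 1, with adjusted p from 0.506 to 0.966 over the alternatives. ABCA1, which loads cholesterol on lipid-poor apolipoprotein, was at 0.632, 0.418 and 0.571 FPKM against 0.320, 0.507 and 0.504 FPKM, or 126, 77 and 118 reads against 64, 103 and 100. Its groups overlapped, and voom over genes with a mean of at least 10 reads (0.0267% of them called) gave -0.31 (SE 0.24, voom adjusted p = 0.743), or -0.09 (SE 0.19) without TRPV3 replicate 1.

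Synthesis set against efflux gave the same order in each TRPV3 library. The median of the 19 synthesis genes minus that of the 2 efflux genes, relative to the mock mean on the log2(FPKM + 1) scale, was 0.60, 0.34 and 0.23 in TRPV3 replicates 1 to 3 and -0.01, 0.08 and -0.06 in mock replicates 1 to 3. The TRPV3 values lay above the mock values, with replicate 1 the highest. This difference rests on 2 low genes on the efflux side and carries no test. In the fitted values, where ABCG1 alone stands for efflux, the difference of medians was 0.46 with all libraries and 0.38 without TRPV3 replicate 1.

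**Figure D3:**
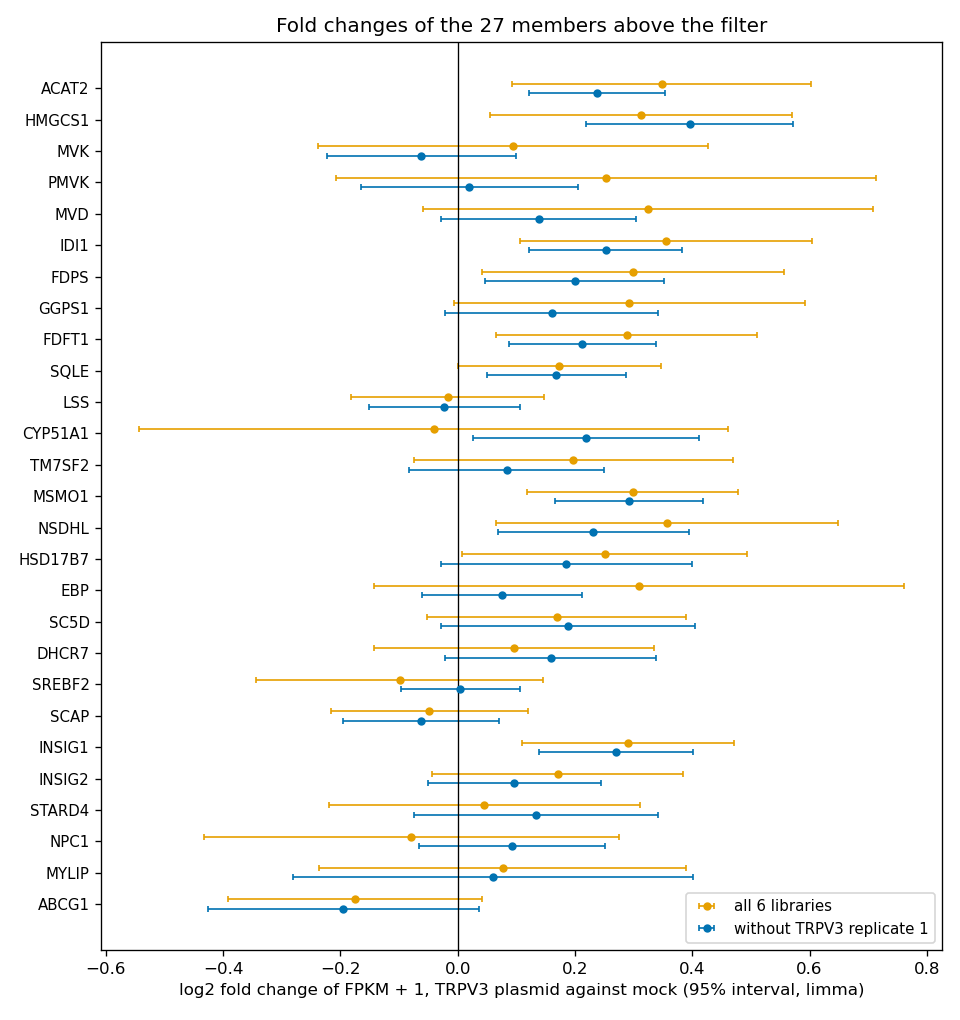
Points are limma log2 fold changes of FPKM + 1, TRPV3 against mock, with 95% intervals that are not adjusted for the number of genes, for the 27 members tested; orange uses all 6 libraries and blue leaves out TRPV3 replicate 1. Most intervals narrow without that library, and PMVK, MVD and EBP move toward 0 while HMGCS1 and CYP51A1 move up.

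Gene length accompanied the behaviour of TRPV3 replicate 1 among the members as among all genes. The difference between that library and the mean of TRPV3 replicates 2 and 3 had a Spearman's rho of -0.43 with gene length over the 27 members and -0.53 over all 12177 genes, given as a description since the points share the same 3 libraries. PMVK, with 1280 bases the shortest member, was 0.70 higher there on the log2 scale, and NPC1, with 10102 bases the longest of those tested, was 0.51 lower. Length did not order all members: CYP51A1, of 3584 bases, was 0.78 lower, and MVK, of 6480 bases, was 0.47 higher. HMGCS1 was 0.25 lower, while MSMO1, INSIG1 and SQLE were 0.02, 0.06 and 0.01 higher. With the length trend removed from every library, the synthesis median was 0.21 and 18 of the 19 were above 0, where 49.8% of all genes were. How much of the difference between TRPV3 replicate 1 and the others comes from length was not tested.

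**Figure D4:**
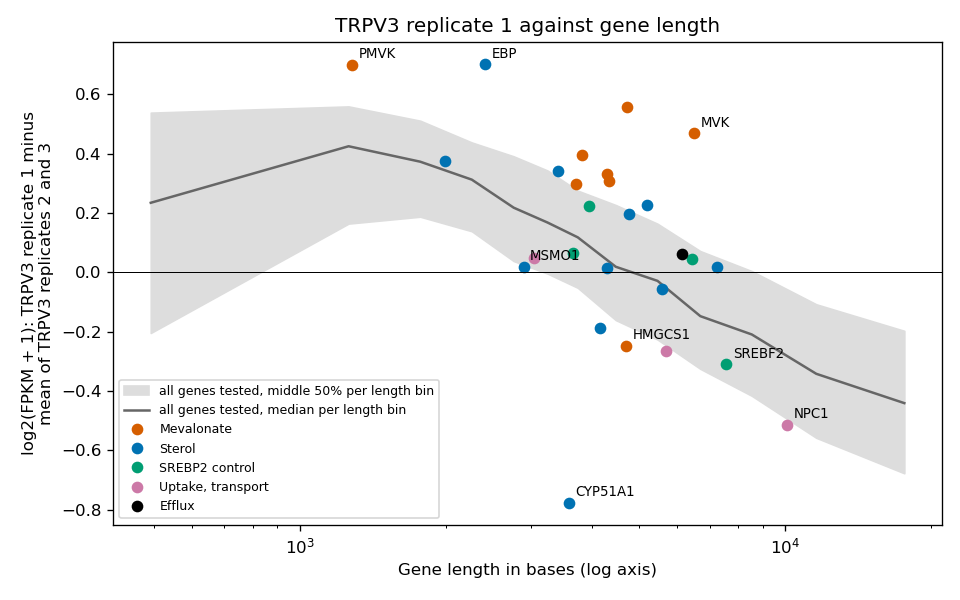
The vertical axis gives log2(FPKM + 1) of TRPV3 replicate 1 minus the mean of TRPV3 replicates 2 and 3, the horizontal axis gene length in bases on a log scale; coloured points are the 27 members, the line and band the median and middle 50% of all genes tested, by length. Short genes lie above 0 and long genes below it, in the median, and CYP51A1, PMVK, EBP, MVD and MVK are among the members outside the band.

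The medians of several neighbouring lists turned direction or shrank when TRPV3 replicate 1 was left out. Of 79 genes in 7 lists, 68 passed the 1 FPKM filter and 0 were called by limma with all libraries, where 0.0411% of all genes were called, so that this count is no result about them. The 10 genes of SREBP maturation and sterol sensing had a median of -0.04 with 3 above 0, from MBTPS1 (-0.14), the first protease that cuts SREBP, to TMEM97 (0.19), an NPC1-binding protein. Leaving out TRPV3 replicate 1 gave a median of 0.03 with 7 above 0, and -0.08 for MBTPS1. TMEM97 was at 22.1 ± 1.19 FPKM in mock and 25.3 ± 1.09 FPKM in TRPV3 libraries (n = 3 each). The 12 genes of SREBP1 and its fatty acid targets had a median of -0.04 with 4 above 0, from ACACA (-0.24), acetyl-CoA carboxylase, to FADS2 (0.13), a fatty acid desaturase. The median was 0.07 with 10 above 0 when TRPV3 replicate 1 was left out, and ACACA was then 0.04. The difference between these genes and the cholesterol enzymes was not tested.

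Genes listed under other products of mevalonate had a median of 0.08 over 13 genes. They ran from GGCX (-0.02), the vitamin K dependent carboxylase, to RABGGTB (0.21), a subunit of Rab prenyltransferase. In the absence of TRPV3 replicate 1 the median was 0.02 and RABGGTB was 0.09. The 14 tested genes of intracellular sterol transport and esterification had a median of -0.00 (-0.0050), from OSBPL5 (-0.12) to NPC2 (0.27), the lysosomal partner of NPC1. When TRPV3 replicate 1 was left out, the median was 0.04 with 9 above 0, OSBPL5 was -0.04 and NPC2 was 0.11. The 10 tested genes of LXR and efflux had a median of -0.09 with 3 above 0, from LPCAT3 (-0.35), a lysophospholipid acyltransferase, to NR1H2 (0.15), the LXR beta receptor. Without TRPV3 replicate 1 LPCAT3 was -0.09, NR1H2 was 0.08 and the list median was -0.02. The 8 tested helpers of sterol synthesis had a median of 0.09, from CYB5R3 (-0.03), cytochrome b5 reductase, to SEC14L2 (0.15), a lipid-binding protein, and the median was 0.04 without TRPV3 replicate 1. Of 8 oxysterol and bile acid enzymes only the sterol sulfotransferase SULT2B1 was at 1 FPKM or more, with 0.18, or 0.08 without TRPV3 replicate 1.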

How the data were processed

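RNA of 6 libraries, 3 mock and 3 TRPV3, was made with a NEBNext Ultra kit, per the labels' protocols; HISAT2 2.0.5 and hg38 are named in the submitters' processing notes, and no source used here states the counting tool or its strand setting. Values were deposited as FPKM, computed by the authors for each gene in each library, with gene lengths that equal those of GENCODE 29 for all 58735 genes. FPKM times length gave whole reads for 100% of values (tolerance 0.02 reads), 16.0 to 18.4 M per library; 3 reads at 1 kb correspond to 0.165 to 0.185 FPKM, for counting error only. Groups and replicate numbers come from the labels.

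Values were tested as log2(FPKM + 1) with limma 3.58.1 (R 4.3.3), trend on, over 12177 genes whose mean reached 1 FPKM, with Benjamini-Hochberg adjustment and a threshold of 0.05, two-sided. The test was tried on simulated data. The members and gene lists were chosen with earlier results of these data known. Named are all 28 members, TRPV3, and the largest rise and fall of each neighbouring list. Alternatives were a pseudocount of 0.1, no filter, 5 FPKM, TPM and quantile scaling, removal of a length trend (lowess, span 0.3), the replicate block, each library left out, and voom (TMM scaling) on the reads; 4 combinations were added after seeing the data. Promoters come from RefSeq (GRCh38.p14). Protein sequences were not used here. Figures were drawn with matplotlib 3.10.9.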

Additional observations from a re-analysis of the deposited data

How the results depend on the processing

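The number of genes called over all genes (5) was 12 with no filter, 3 with a filter of 5 FPKM, 3 with the replicate block, 10 without TRPV3 replicate 1 and mock replicate 3, 8 with the length trend removed and TRPV3 replicate 1 left out, and 2 to 8 with each library left out in turn. Without TRPV3 replicate 1, voom called 72 genes, or 80 over genes with a mean of 10 reads, and 3 members in both cases, where limma on log2 values called 0 members. The synthesis median of 0.29 was 0.19 with TPM and 0.19 with quantile scaling, both over all 6 libraries. The median of all genes moved too, from 0.012 to -0.079 with TPM and to -0.0028 with quantile scaling. The share of all genes above 0 went from 53% to 32.9% with TPM and to 49.2% with quantile scaling. The synthesis median was 0.15 without TRPV3 replicate 1 and mock replicate 3, and 0.17 with the length trend removed and TRPV3 replicate 1 left out. The efflux median of -0.17, which is ABCG1 alone, was -0.28 with a pseudocount of 0.1, -0.33 with TPM, -0.32 by voom and -0.35 by voom without TRPV3 replicate 1. It was nearer 0 in others, such as -0.15 with quantile scaling or the length trend removed, and -0.125 without TRPV3 replicate 2. ABCA1 enters with no filter (-0.13) and by voom over genes with a mean of 10 reads (-0.31, or -0.21 without TRPV3 replicate 1). A filter of 5 FPKM leaves no efflux gene. The cause of these shifts was not tested.

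Some members turned direction: MVK, PMVK, LSS, CYP51A1, DHCR7, SREBF2, STARD4, NPC1 and MYLIP. Without TRPV3 replicate 1 the values were -0.062 (MVK), 0.22 (CYP51A1), 0.0047 (SREBF2) and 0.092 (NPC1). By voom without it they were -0.077 (MVK), 0.23 (CYP51A1) and 0.089 (NPC1), and over genes with a mean of 10 reads -0.072, 0.24 and 0.094, with 0.00047 for SREBF2. Without that library and mock replicate 3 they were -0.025 (MVK), 0.28 (CYP51A1), 0.0019 (SREBF2), 0.069 (NPC1) and -0.029 (MYLIP). With the length trend removed they were 0.030 (LSS), 0.011 (NPC1) and -0.00037 (MYLIP), and with TRPV3 replicate 1 also left out -0.066 (MVK), -0.0011 (PMVK), 0.20 (CYP51A1), 0.00087 (SREBF2) and 0.091 (NPC1). TPM, with which the median of all genes was -0.079, turned DHCR7 (-0.00035) and STARD4 (-0.045), and quantile scaling DHCR7 (-0.034). With each library left out in turn, the values ran from -0.062 to 0.18 (MVK), -0.049 to 0.013 (LSS), -0.17 to 0.22 (CYP51A1), -0.16 to 0.0047 (SREBF2), -0.023 to 0.13 (STARD4), -0.17 to 0.092 (NPC1) and -0.013 to 0.17 (MYLIP). Replicate numbers were not taken to pair the samples: the deviations of same-numbered libraries had correlations of -0.27, -0.04 and -0.17. The replicate block called 0 members, as the main fit did, so unchanged calls say little about pairing. At an unadjusted limma p under 0.05 it had 8 members (3.08% of all genes), where the main fit had 10 (4.48%). The count of synthesis genes above 0 lay between 15 (of 17 tested, filter of 5 FPKM) and 18. ABCA1 rests on 64 to 126 reads a library and ABCG1 on 127 to 184, among the lowest read counts of the members.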
